A study of Mus musculus with 2 samples.

Results

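Cell cycle genes were examined in donor-derived monocytes and macrophages of the mouse lung, with and without LyzM-Cre deletion of the TGF-beta receptor gene Tgfbr2 in the donor marrow. The set has 42 member genes, matched by symbol to the rows of the expression matrix, and all 42 were present among the 22597 genes measured. The members fall into 12 genes of S phase, 22 genes of G2 and mitosis (G2/M), 4 division genes listed as also high outside it, and 4 regulators of G1.

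All hosts were IM-DTR mice of CD45.1+CD45.2+ type that had been irradiated, and the donor marrow carried CD45.1-CD45.2+ cells. Donors of the control pool were Tgfbr2 fl/fl, and donors of the Tgfbr2-KO pool were Tgfbr2 fl/fl with LyzM-Cre. Both groups of hosts received 50 ng of diphtheria toxin 10 days before sacrifice, and the ages of the mice are not given in the sources used here. LyzM-Cre acts in cells that express lysozyme M, such as monocytes, macrophages and neutrophils, and the toxin kills the hosts' own interstitial macrophages, so that marrow-derived cells refill the niche. Sorted CD11b+CD64+ donor cells with low side scatter, negative for Ly6G and SiglecF, were pooled from 5 mice per genotype, tagged with 1 hashtag per genotype (B0301 for control, B0303 for Tgfbr2-KO) and run together in 1 droplet-based 3′ library. With 1 pool per genotype there is no replicate, so no test was made. The 95% intervals cover counting error only and leave out differences between mice. Those of UMI levels and UMI ratios count each UMI on its own, so they also leave out differences between cells. They are too narrow where a few dividing cells hold most of the UMIs.

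Dividing cells pass from G1 into S phase, in which DNA is copied, and then through G2 into mitosis. The transcription factor family E2F drives many S-phase genes, whereas many G2/M genes carry a CHR element near the start site, read by the MuvB complex, together with CCAAT boxes bound by NF-Y. TGF-beta is known in many cell types for holding cells in G1, through inhibitors of cyclin-dependent kinases such as the product of Cdkn1a and through lower Myc. Interstitial macrophages of the lung renew from monocytes and by local division.

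RefSeq promoter windows, from 250 bases before to 50 bases after the annotated start (build GRCm38.p6), were found for 36 of the 42 members. Mcm4, Aurkb, Tpx2, Ccna2, Stmn1 and Ccnd1 had no window in that table. Windows were searched on both strands for the CHR element as TTTGAA or TTCGAA, for CCAAT, and for the E2F site as TTTCCCGC, TTTCGCGC, TTTGCCGC or TTTGGCGC. Matches of different motifs overlapped in 1 member window, a window of Mcm7. A CHR match lay in 14 of the 19 G2/M windows (73.7%), in 2 of the 12 S-phase windows (16.7%) and in 19.2% of all 32851 windows. An E2F match lay in 5 of the 12 S-phase windows (41.7%), in 1 G2/M window (5.26%) and in 2.26% of all windows. CCAAT was found in 89.5% of the G2/M windows, 83.3% of the S-phase windows and 37.4% of all windows. Both a CHR and a CCAAT match were present in 14 G2/M genes, against 7.52% of all windows. Matches of these letters describe the windows and are not measured binding.

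**Figure D1:**
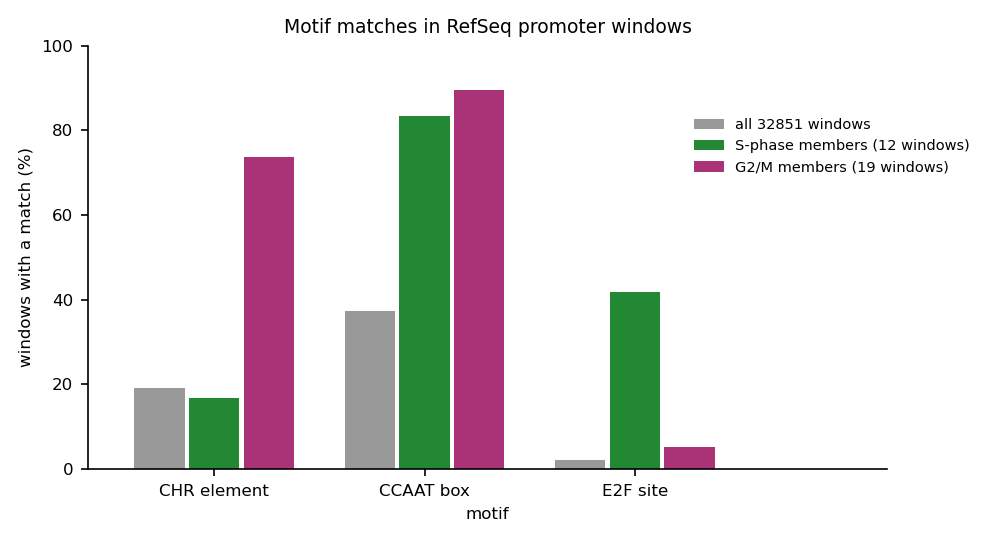
Share of RefSeq promoter windows with a match (y axis, percent) for the CHR element, the CCAAT box and the E2F site, in all 32851 windows and in those of S-phase and G2/M members. CHR matches are frequent among the 19 G2/M windows (73.7%) and E2F matches among the 12 S-phase windows (41.7%).

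The windows of 7 members are shown from 180 bases before to 20 bases after the start, as RefSeq gives them for GRCm38.p6, 5′ to 3′ on the strand of the gene. They were chosen with the values known. Top2a, Ube2c and Ccnb2 stand for G2/M genes found mainly in dividing cells, Pclaf and Mcm6 for S-phase genes with an E2F match, and Bub1b and Cks2 for the G2/M members with the highest and the lowest ratio between the pools. Capitals mark CHR, CCAAT and E2F matches on either strand.
Top2a, chr11:99024170-99024369, minus strand: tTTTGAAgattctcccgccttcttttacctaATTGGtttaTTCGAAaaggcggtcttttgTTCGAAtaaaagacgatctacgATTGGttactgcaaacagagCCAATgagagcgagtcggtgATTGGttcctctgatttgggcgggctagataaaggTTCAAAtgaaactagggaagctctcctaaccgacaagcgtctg
Ube2c, chr2:164769749-164769948, plus strand: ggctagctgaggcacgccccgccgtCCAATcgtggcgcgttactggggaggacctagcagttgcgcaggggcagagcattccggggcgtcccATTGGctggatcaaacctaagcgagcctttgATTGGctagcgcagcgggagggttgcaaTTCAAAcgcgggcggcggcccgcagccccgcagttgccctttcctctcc
Ccnb2, chr9:70421535-70421734, minus strand: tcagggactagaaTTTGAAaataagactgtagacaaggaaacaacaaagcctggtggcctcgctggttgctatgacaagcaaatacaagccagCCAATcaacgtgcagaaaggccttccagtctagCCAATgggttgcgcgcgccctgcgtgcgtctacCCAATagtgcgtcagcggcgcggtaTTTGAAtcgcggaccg
Pclaf, chr9:65890143-65890342, plus strand: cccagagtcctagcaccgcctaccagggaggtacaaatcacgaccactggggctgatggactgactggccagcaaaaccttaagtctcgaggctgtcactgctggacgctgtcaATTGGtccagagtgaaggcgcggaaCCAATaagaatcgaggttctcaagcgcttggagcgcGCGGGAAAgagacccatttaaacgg
Mcm6, chr1:128359686-128359885, minus strand: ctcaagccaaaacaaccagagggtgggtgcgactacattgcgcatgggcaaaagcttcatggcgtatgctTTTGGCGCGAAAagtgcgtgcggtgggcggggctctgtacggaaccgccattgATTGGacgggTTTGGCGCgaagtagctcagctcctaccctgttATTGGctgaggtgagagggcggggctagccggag
Bub1b, chr2:118598031-118598230, plus strand: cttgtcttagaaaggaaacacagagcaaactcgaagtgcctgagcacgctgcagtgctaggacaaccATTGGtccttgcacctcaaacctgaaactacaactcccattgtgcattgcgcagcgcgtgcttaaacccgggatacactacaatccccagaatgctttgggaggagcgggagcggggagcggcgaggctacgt
Cks2, chr13:51645052-51645251, plus strand: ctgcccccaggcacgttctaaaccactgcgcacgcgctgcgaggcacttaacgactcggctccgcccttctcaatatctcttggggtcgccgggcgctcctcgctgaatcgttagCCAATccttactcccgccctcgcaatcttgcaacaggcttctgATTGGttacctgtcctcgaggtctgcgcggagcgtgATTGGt
The CHR match nearest the start began at position -23 in Top2a and at position -29 in Ube2c, counted from the start. The E2F match of Pclaf began at position -5. Cks2 held CCAAT boxes but no CHR match in its window, and Birc5 and Nusap1 held neither of these motifs. In Bub1b both CHR matches of the searched window lie outside the stretch shown.

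Of 4887 called cells, 4570 entered the comparison, 1896 of the control pool with 16298452 UMIs (unique molecular identifiers, the counted molecules) and 2674 of the Tgfbr2-KO pool with 30729204 UMIs. The median cell held 7785 UMIs in the control pool and 10277.5 in the Tgfbr2-KO pool, so shares of cells were taken after thinning each cell to 3000 UMIs, which left 1816 and 2591 cells. The 3′ counts do not measure the deletion, since the tags can lie outside the floxed part of Tgfbr2. The sorted cells were mostly macrophages by their markers. C1q genes, which mark interstitial macrophages, were at 11683 UMIs per 1000000 in control cells outside the gate for dividing cells described further on and at 10364 in Tgfbr2-KO cells there. Within that gate the 7 alveolar macrophage markers summed to 1.33 and 3.07 UMIs per 1000000, with Marco and Car4 at 0 in both pools. The 7 neutrophil markers summed to 12.0 and 34.7 there, with Ly6g, Cxcr2 and Retnlg at 0 in both and 3 markers detected in each. Outside the gate the alveolar markers summed to 12.4 and 8.24, and the neutrophil markers to 50.5 and 99.2. All 7 neutrophil markers were detected in Tgfbr2-KO cells there. The 7 classical monocyte markers summed to 487 and 1398 outside the gate. Dissociation stress genes summed to 15452 UMIs per 1000000 in control and 12087 in Tgfbr2-KO cells, a log2 ratio of -0.35, and their part in the results was not tested.

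Levels are UMIs of a gene summed over the cells of a pool, per 1000000 gene UMIs of those cells (UPM), and ratios are Tgfbr2-KO over control. Genes entered the counts from 100 UMIs over both pools and were called at 1.5-fold. In a pool, more cells of a kind and more RNA per cell cannot be told apart from such sums, and levels of different genes are not compared, since counts at the 3′ end depend on the gene. Over all cells 22 of the 41 counted members were at least 1.5-fold higher in the Tgfbr2-KO pool, against 11.9% of 10237 counted genes. Only 2 members were at least 1.5-fold lower, against 7.53% of those genes. The median log2 ratio was 0.62 over the members and 0.09 over all counted genes. The interval of the log2 ratio lay above 0 in 36 of the 41 counted members, against 37.8% of those genes, and below 0 in 3, against 23.2%. The count of 22 depended on the scaling and on the cells: it was 16 with TMM scaling, which lowers every log2 ratio by 0.07, 18 without interferon-activated cells and 26 without the top 5% of cells by UMIs. Top2a, Cdk1, Cenpa, Cenpf, Tk1 and Cdc20 fell short of 1.5-fold with TMM scaling, at log2 ratios from 0.54 to 0.58.

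S-phase members were higher in the Tgfbr2-KO pool in all 12 cases, and 6 of the 12 were at least 1.5-fold higher. Their sum had 258 UPM (250 to 265) in control and 334 UPM in Tgfbr2-KO cells (328 to 341), a log2 ratio of 0.38 (0.32 to 0.43). Pcna, which encodes the sliding clamp of DNA polymerase, made up much of these UMIs and stood at 128 and 138 UPM, a log2 ratio of 0.11 (0.04 to 0.19). Without Pcna, left out after the data were seen, the S-phase sum had a log2 ratio of 0.60.

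Pclaf, which encodes a factor that binds this clamp, had 12.6 UPM in control and 26.3 UPM in Tgfbr2-KO cells, 2.09-fold higher (1.79 to 2.45). The ribonucleotide reductase subunit gene Rrm2, which supplies deoxynucleotides, stood at 3.37 and 7.35 UPM, 2.18-fold higher. Its partner subunit gene Rrm1 stood at 15.3 and 22.3 UPM, a log2 ratio of 0.54. These genes of nucleotide supply differed in size of ratio, and Tyms, which makes thymidylate, stood at 11.5 and 13.6 UPM with an interval that includes 0 (-0.01 to 0.49).

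The 6 subunit genes of the MCM helicase, which unwinds DNA at origins, had log2 ratios from 0.34 for Mcm3 to 0.78 for Mcm2. Mcm3 stood at 24.3 and 30.8 UPM, Mcm6 at 14.5 and 20.4 UPM, Mcm5 at 10.4 and 17.0 UPM, and Mcm7 at 12.0 and 16.9 UPM. Mcm2, Mcm4 and Mcm5 passed 1.5-fold and Mcm3, Mcm6 and Mcm7 did not. Thymidine kinase, encoded by Tk1, stood at 10.0 and 15.5 UPM, a log2 ratio of 0.63.

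G2/M members were at least 1.5-fold higher in 15 of 22 cases and at least 1.5-fold lower in 1. Summed, they had 315 UPM (307 to 324) in control and 393 UPM in Tgfbr2-KO cells (386 to 400), a log2 ratio of 0.32 (0.27 to 0.36). Cks2, which encodes a small protein that binds cyclin-dependent kinases, was the exception, with 93.3 UPM in control and 55.1 UPM in Tgfbr2-KO cells, 1.69-fold lower (1.58 to 1.81). Without Cks2 the sum of the other 21 had a log2 ratio of 0.60, close to that of the S-phase sum without Pcna. Both genes were left out after the data were seen. Each had the lowest ratio of its group, so leaving it out could only raise the sum's ratio.

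Mki67, which encodes the proliferation antigen Ki-67, had 38.3 UPM in control and 47.1 UPM in Tgfbr2-KO cells, a log2 ratio of 0.30 (0.16 to 0.44). Top2a, the gene of the topoisomerase that untangles sister chromosomes, stood at 29.3 and 45.2 UPM, 1.54-fold higher. Cenpa, the centromere histone, stood at 25.9 and 39.4 UPM, 1.52-fold higher. The survivin gene Birc5 and the ubiquitin-conjugating enzyme gene Ube2c had the same log2 ratio to 2 decimals, 0.47, at 21.4 and 29.5 UPM and at 19.1 and 26.4 UPM. Both passed 1.5-fold when the top 5% of cells by UMIs were left out, with log2 ratios of 1.01 for Birc5 and 1.13 for Ube2c.

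The mitotic kinase gene Cdk1 stood at 9.45 and 14.8 UPM, and the gene of its mitotic partner cyclin B2, Ccnb2, at 10.1 and 16.5 UPM, 1.57-fold and 1.63-fold higher. Nusap1, which encodes a spindle protein, stood at 7.30 and 12.2 UPM, 1.67-fold higher. The spindle motor genes Cenpe and Kif23 were under 1.5-fold, with log2 ratios of 0.39 and 0.41. The cyclin genes Ccna2 and Ccnb1 had log2 ratios of 0.76 and 0.94, the motor gene Kif11 0.96, the Aurora kinase gene Aurkb 0.85, and Cdc20, which activates the anaphase-promoting complex, 0.64. The kinetochore gene Cenpf and the spindle gene Tpx2 were 1.54-fold and 1.64-fold higher. Low-count genes of spindle kinases had wide intervals. Plk1 rested on 19 and 84 UMIs with a log2 ratio of 1.23 (0.50 to 2.03), and Aurka on 26 and 104 UMIs with a log2 ratio of 1.09 (0.45 to 1.76). Without the top 5% of cells by UMIs the log2 ratio was 1.74 for Aurka, 1.59 for Ccnb1, 1.29 for Cdc20, 1.22 for Cenpf, 1.16 for Cdk1 and 0.77 for Kif23.

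Bub1b, which encodes the spindle checkpoint kinase BubR1, had the highest ratio of the counted members. Bub1b had 4.79 UPM (3.78 to 5.97) in control and 17.3 UPM in Tgfbr2-KO cells (15.9 to 18.8), 3.62-fold higher (2.85 to 4.65), from 78 and 532 UMIs in 54 and 306 cells. Bub1, which encodes the related checkpoint kinase, stood at 2.70 and 3.51 UPM with an interval that includes 0 (-0.14 to 0.92). No annotated gene of the RefSeq table overlapped Bub1b. For 9 of the 42 members, such as Cdc20 and Ccna2, a protein-coding gene overlaps, and the sources used here do not give the strand used in counting.

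The 4 genes listed as also high outside division had log2 ratios of 0.16 for Stmn1, 0.36 for Hmgb2, 0.42 for Tubb5 and 0.68 for Cks1b. The gate for dividing cells held 68.7% of Stmn1 UMIs in control and 73.0% in Tgfbr2-KO cells. It held 61.6% and 56.6% for Cks1b, 31.4% and 40.4% for Hmgb2, and 31.1% and 33.9% for Tubb5. The group name therefore describes Stmn1 and Cks1b less well. Stmn1, which encodes the microtubule regulator stathmin, stood at 105 and 117 UPM. The chromatin protein gene Hmgb2 stood at 208 and 267 UPM, and the beta-tubulin gene Tubb5 at 222 and 296 UPM. Cks1b, the close relative of Cks2, stood at 13.4 and 21.5 UPM, 1.60-fold higher, so the pair differed in direction.

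Among the G1 regulators the cyclin D genes differed in direction. Ccnd1 had 101 UPM in control and 117 UPM in Tgfbr2-KO cells, a log2 ratio of 0.22 (0.13 to 0.30). Ccnd3 had 64.4 and 41.6 UPM and was 1.55-fold lower (1.43 to 1.68). This ratio no longer reached 1.5-fold without the interferon-activated cells, at a log2 ratio of -0.53. Cdkn1a, which encodes the kinase inhibitor p21, stood at 941 UPM (926 to 956) and 721 UPM (712 to 731), a log2 ratio of -0.38 that is under 1.5-fold. The dissociation stress genes had a log2 ratio of -0.35 over the same cells, and their part in the Cdkn1a value was not tested. Ccne1, the cyclin E1 gene of the G1/S step, had 12 and 87 UMIs, under the count minimum, at 0.736 and 2.83 UPM.

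**Figure D2:**
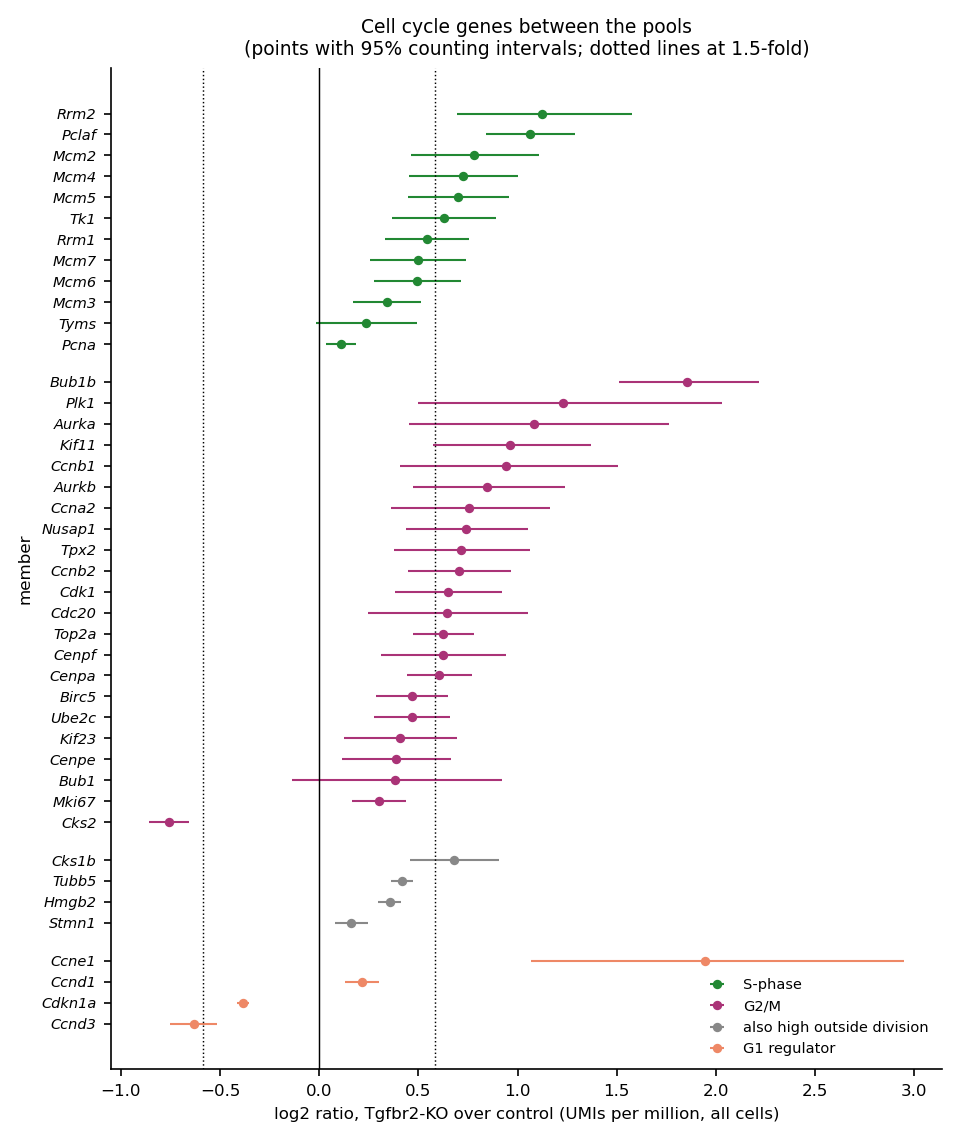
Log2 ratio of Tgfbr2-KO over control for each member over all cells (x axis), sorted within the 4 groups, with 95% counting intervals and dotted lines at 1.5-fold. Most S-phase and G2/M members lie to the right of 0, Bub1b stands apart at 1.86, and Cks2, Ccnd3 and Cdkn1a lie to the left. Ccne1 is drawn although it was under the count minimum.

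Members are not spread evenly over cells, so the number of different members was counted in each thinned cell. A cell was called cycling with at least 3 different S-phase or at least 3 different G2/M members. By this rule 67 of 1816 control cells were cycling, which is 3.69% (2.87 to 4.66), and 196 of 2591 Tgfbr2-KO cells, which is 7.56% (6.58 to 8.65), 2.05-fold more (1.55 to 2.75). Cells exactly at the threshold numbered 19 in the control pool and 42 in the Tgfbr2-KO pool, and those 1 member short of it 162 and 230. With at least 2 different members of a phase the shares were 12.6% and 16.4%, 1.30-fold more. With at least 5 they were 2.37% and 4.71%, and with at least 3 but without thinning they were 13.2% and 25.5%. Some members are found outside division: in 323 thinned C1q-low monocyte-like cells (median 10479 UMIs before thinning) Pcna was found in 25.7% and Cks2 in 19.5% of cells, Top2a in 0.929% and Mki67 in 1.55%. Of these cells 259 Ly6c2 and 20 patrolling monocyte-like cells came from the Tgfbr2-KO pool, and 36 and 8 from control.

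The cycling cells were split by phase. S-phase members alone reached the threshold in 26 control and 74 Tgfbr2-KO cells, 1.43% (0.937 to 2.09) and 2.86% (2.25 to 3.57). G2/M members alone did so in 20 and 54 cells, 1.10% and 2.08%, and both in 21 and 68 cells, 1.16% and 2.62%. All 3 kinds therefore had larger shares in the Tgfbr2-KO pool. At the other end, no S-phase and no G2/M member was found in 758 control cells (41.7%) and 1054 Tgfbr2-KO cells (40.7%).

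**Figure D3:**
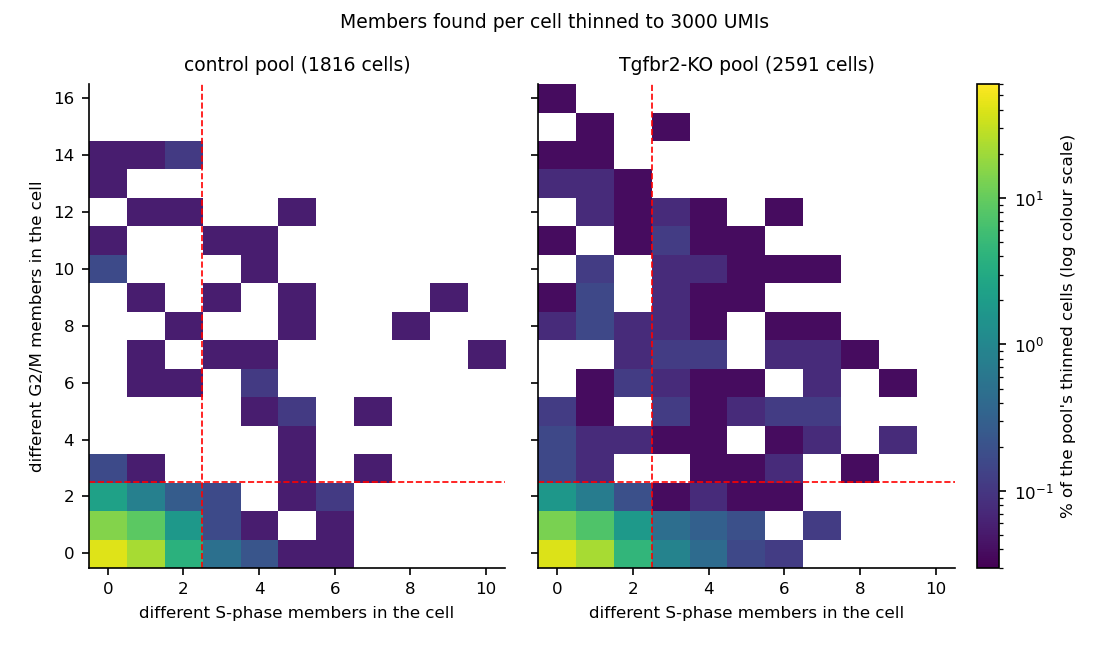
Number of different S-phase members (x axis) and G2/M members (y axis) in each cell after thinning to 3000 UMIs, one panel per pool, coloured by the percent of the pool's cells on a log scale; red lines mark the threshold of 3 members. Most cells of both pools lie at the lower left, and the cells beyond the lines make up 3.69% of control and 7.56% of Tgfbr2-KO cells.

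To ask how the members behave in dividing cells, cells were gated on other genes. The gate took thinned cells with at least 6 different genes of 87 S-phase and G2/M genes that are not members. It held 52 control cells, 2.86% (2.15 to 3.74), and 141 Tgfbr2-KO cells, 5.44% (4.60 to 6.39), and 20 and 68 cells had exactly 5 or 6 of these genes. The median gated cell held 13336.5 UMIs in the control pool and 15102 in the Tgfbr2-KO pool, against 7880 and 10274.5 outside the gate. In gated cells 36.5% and 46.8% reached the threshold of both phases, and 17.3% and 12.1% that of neither. Of the cells cycling by members, 43 of 67 control and 124 of 196 Tgfbr2-KO cells lay within the gate. Cells outside the gate therefore include some that are cycling by members. The gated cells also differed in make-up by the cell states described further on. CD206- cells were 55.8% of gated control and 39.7% of gated Tgfbr2-KO cells, CD206+ cells 5.77% and 19.1%, and remaining C1q-high cells 25.0% and 14.2%. Interferon-activated C1q-high cells were 0 of 52 and 24 of 141. The part of this make-up in the values of gated cells was not tested.

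Members differed in how far the gated cells held their UMIs. Ccna2, the cyclin A2 gene, had 97.1% of its UMIs in gated cells of the control pool and 94.6% in those of the Tgfbr2-KO pool. Pclaf had 95.1% and 91.9%, the spindle motor gene Kif11 92.6% and 92.4%, and Ube2c 94.2% and 84.8%. More than 75% lay in gated cells of both pools for 14 of the 22 G2/M members and 2 of the 12 S-phase members. The MCM genes were spread more widely, with 19.5% and 30.4% for Mcm3. Pcna had 13.3% and 19.6%, Cks2 16.0% and 26.3%, and Cdkn1a 3.28% and 6.59%. The gate itself took in 2.86% of thinned control cells and 5.44% of thinned Tgfbr2-KO cells. Gated cells were deeper, so these shares of cells understate the gate's share of all UMIs. Cdkn1a, for example, was lower within the gate than outside it. It stood at 670 against 962 UPM in control and at 639 against 730 UPM in Tgfbr2-KO cells. The percentages of UMIs depend on the size of the gate, so their differences between the pools are not read as changes of a gene. The same percentages over all genes and over all UMIs are not given here.

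**Figure D4:**
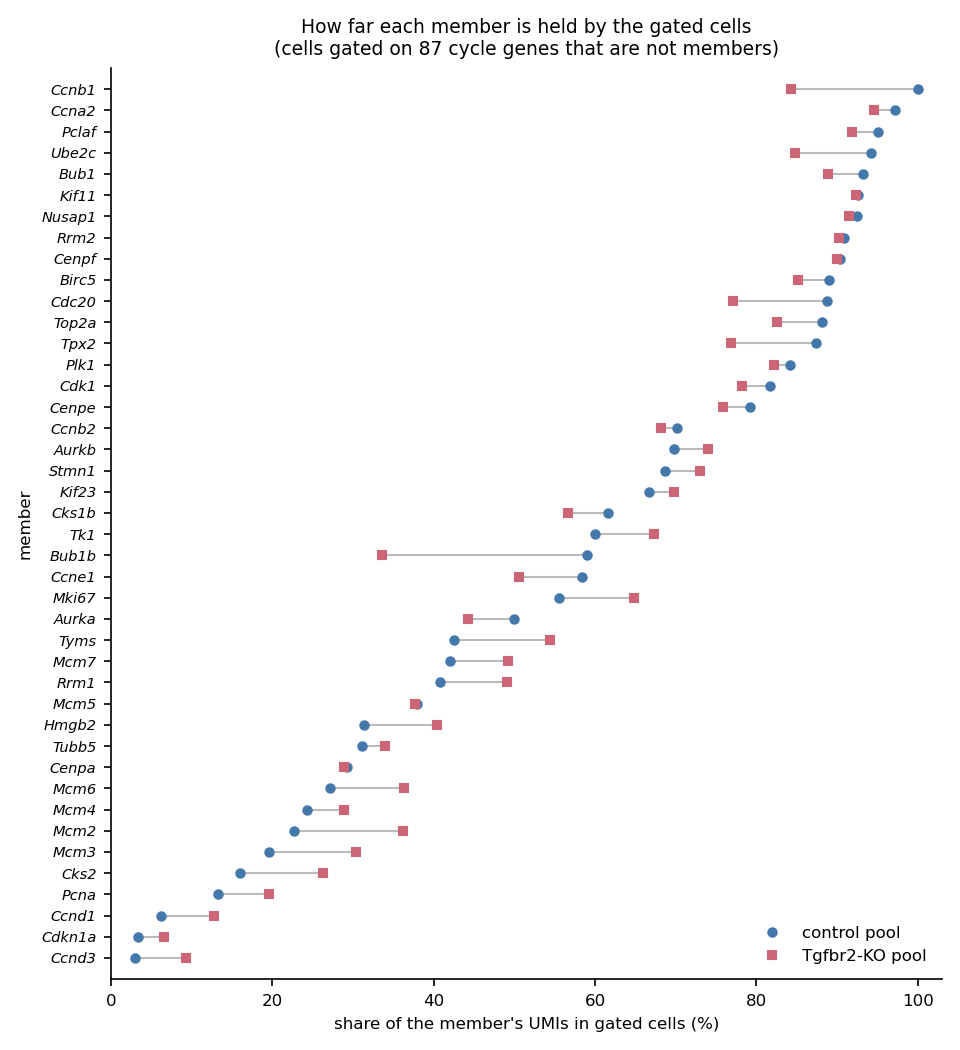
Percent of each member's UMIs that lies in cells gated on 87 other cycle genes (x axis), for the control pool (circles) and the Tgfbr2-KO pool (squares), sorted by the control value. Cyclin and spindle genes lie near the top, Pcna, Cks2 and the G1 regulators Ccnd1, Ccnd3 and Cdkn1a at the bottom, and Bub1b has the largest gap, from 59.0% to 33.6%. The gate took in 2.86% of thinned control cells and 5.44% of thinned Tgfbr2-KO cells. Gated cells were deeper, so their share of all UMIs was larger than this.

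Within gated cells the members were close between the pools. The median log2 ratio over 39 counted members was -0.01, against 0.01 over 4327 genes. The gate chose cells of both pools by the same threshold on genes of the same phases. Close levels of members within it were therefore partly set by that choice. Cks2 was the only member at least 1.5-fold lower, at 324 and 195 UPM (background 5.02%), and Mcm2 the only member at least 1.5-fold higher, at 32.0 and 54.0 UPM (background 8.53%). The lower Cks2 level was not shared by all states within the gate. In the remaining C1q-high cells Cks2 was at 541 UPM in 13 control cells against 175 UPM in 20 Tgfbr2-KO cells, a log2 ratio of -1.63 (-2.14 to -1.13), whereas in the CD206- cells it stood at 245 against 255 UPM, a log2 ratio of 0.06 (-0.30 to 0.43). The S-phase sum stood at 1526 UPM in control and 1698 UPM in Tgfbr2-KO gated cells, a log2 ratio of 0.15 (0.06 to 0.25). The G2/M sum stood at 3851 and 3392 UPM, a log2 ratio of -0.18 (-0.25 to -0.12). Top2a stood at 562 and 502 UPM there, and Mki67 at 462 and 409 UPM.

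Outside the gate 11 of 28 counted members were at least 1.5-fold higher in Tgfbr2-KO cells (background 12.1%) and 2 were lower (background 7.78%). Bub1b stood at 2.08 UPM in control and 12.5 UPM in Tgfbr2-KO cells outside the gate, a log2 ratio of 2.58 (2.06 to 3.15), from 32 and 353 UMIs. Within the gate Bub1b stood at 61.4 and 78.6 UPM, a log2 ratio of 0.36 with an interval that includes 0 (-0.12 to 0.86). UMIs of Bub1b were found in 0.826% of thinned control cells and 3.43% of thinned Tgfbr2-KO cells. They were found in 2.79% of the 323 monocyte-like cells, most of which are Tgfbr2-KO cells.

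Top2a outside the gate stood at 3.71 and 8.56 UPM, and Ube2c at 1.17 and 4.35 UPM, so some of the difference in these genes lies outside the gate. Cells there include some that are cycling by members, and their part in these values was not tested. Mki67 stood at 18.0 and 17.9 UPM there. Cks2 stood at 82.8 and 43.9 UPM outside the gate, a log2 ratio of -0.91 (-1.03 to -0.80), and Ccnd3 at 63.7 and 40.4 UPM. Cdkn1a stood at 962 and 730 UPM outside the gate and at 670 and 639 UPM within it.

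Cell states were set by sums of marker genes per 10000 UMIs of a cell: cells were split by C1q, and C1q-high cells were taken in turn as interferon-activated (Cxcl9, Ly6i and others), Fn1-rich, CD206+ (Lyve1, Folr2, Mrc1 and others), CD206- (Cd207, Col14a1 and others) or remaining. C1q-low cells were split into Ly6c2 monocyte-like, patrolling monocyte-like, dendritic cell-like, interferon-activated and remaining cells. Of the 4570 cells, 17.0% moved to another state when all thresholds were multiplied by 0.8 or 1.25, so the states are ranges and not sharp types. For the remaining C1q-high cells that share was 36.7%. States with at least 30 cells in both pools were compared.

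Among C1q-high cells 3.69% of 1655 control cells and 8.49% of 2086 Tgfbr2-KO cells were cycling. Among C1q-low cells 5 of 157 control cells were, 3.18% (1.04 to 7.28), and 19 of 499 Tgfbr2-KO cells, 3.81% (2.31 to 5.88), so these intervals overlap widely. In the CD206- gate 34 of 966 control cells were cycling, 3.52% (2.45 to 4.88), and 72 of 802 Tgfbr2-KO cells, 8.98% (7.09 to 11.2), with median depths of 7359 and 8378 UMIs before thinning. In the CD206+ gate 8 of 352 control cells were cycling, 2.27% (0.986 to 4.43), and 31 of 519 Tgfbr2-KO cells, 5.97% (4.09 to 8.37), with median depths of 8289 and 8672 UMIs. The intervals of the pools do not overlap in the CD206- gate and overlap slightly in the CD206+ gate. In the remaining C1q-high cells the shares were 13 of 181 and 28 of 234, 7.18% (3.88 to 12.0) and 11.97% (8.10 to 16.8), with intervals that overlap.

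Interferon-activated C1q-high cells were 498 in the Tgfbr2-KO pool and 6 in control. Of the former 45 of 487 thinned cells were cycling, 9.24% (6.82 to 12.2). None of the 6 control cells was cycling. Interferon-activated markers summed to 105 and 2990 UPM outside the gate for dividing cells, and their part in the members' values was not tested. Without interferon-activated cells the share over all states was 3.70% and 7.20%, 1.94-fold more. Ly6c2 monocyte-like cells held few cycling cells, 0 of 36 in the control pool and 4 of 259 in the Tgfbr2-KO pool, 1.54% (0.422 to 3.91). When the states with at least 30 cells were given the same weights in both pools, the share was 2.21-fold higher in the Tgfbr2-KO pool.

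**Figure D5:**
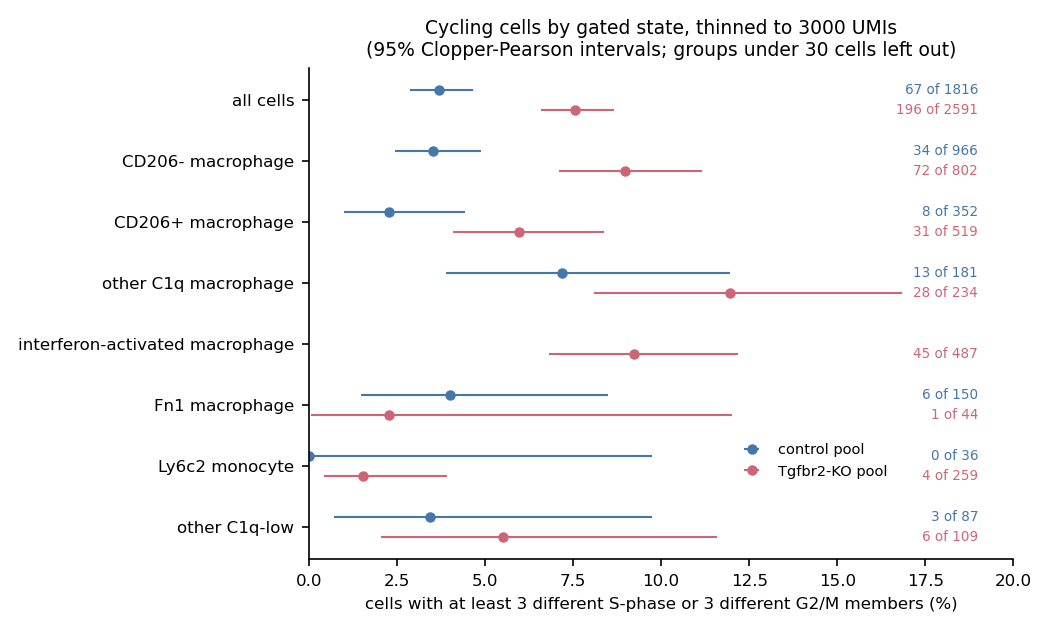
Percent of cells with at least 3 different S-phase or 3 different G2/M members (x axis) by gated state, after thinning to 3000 UMIs, with 95% Clopper-Pearson intervals and the counts at the right. The Tgfbr2-KO point lies to the right of the control point in all states shown with both pools except the Fn1 gate, where it rests on 1 cell of 44.

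In the CD206- gate 27 of 36 counted members were at least 1.5-fold higher in the Tgfbr2-KO pool (background 6.57%) and 1, Ccnd3, was lower (background 2.04%), with a median log2 ratio of 0.89 against 0.11 over all genes. Top2a stood at 30.2 and 62.8 UPM there, Cdk1 at 8.30 and 22.9 UPM, Pclaf at 13.4 and 34.1 UPM and Mki67 at 35.9 and 55.9 UPM. The interval lay above 0 in all 12 counted S-phase members and in 16 of the 17 counted G2/M members, against 28.2% of 7934 genes counted in this gate. It lay below 0 in 3 of the 36 counted members, against 10.2% of those genes. Cks2 stood at 92.1 and 79.0 UPM, a log2 ratio of -0.22 that is smaller than over all cells.

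In the CD206+ gate 9 of 18 counted members were at least 1.5-fold higher (background 7.13%) and 1, again Ccnd3, was lower (background 5.02%). Only 6 of the 12 S-phase and 6 of the 22 G2/M members had enough UMIs to be counted. The minimum applied to the UMIs of both pools together, so a member could be counted through 1 pool alone. Ube2c and Birc5 were counted through the Tgfbr2-KO pool, with 2 UMIs each in control. The count of 9 is therefore partly set by this minimum, which the background genes also had to pass. The G2/M sum had 125 UPM in control and 356 UPM in Tgfbr2-KO cells, a log2 ratio of 1.51 (1.35 to 1.67), and the S-phase sum had 232 and 304 UPM, a log2 ratio of 0.39 (0.27 to 0.52). The gate on other cycle genes held 3 control and 27 Tgfbr2-KO cells of this state, so the control side of these G2/M values rests on few cells. Outside that gate the G2/M sum of the CD206+ cells stood at 115 and 104 UPM, a log2 ratio of -0.15 (-0.35 to 0.05), and the S-phase sum at 221 and 220 UPM, a log2 ratio of -0.01. Over all cells of the CD206+ gate Ube2c had 2 UMIs in control against 138 in the Tgfbr2-KO pool, and Birc5 2 against 123. Their log2 ratios were 5.42 (3.54 to 8.48) and 5.25 (3.37 to 8.31). Of these UMIs, 1 and 134 of Ube2c and 2 and 116 of Birc5 lay in the dividing cells. Top2a had 18 and 174 UMIs, at 5.80 and 34.7 UPM. The targets of p53 summed to 1095 and 1834 UPM and dissociation stress genes to 16184 and 19143 UPM in the same cells, and their part in these values was not tested.

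The remaining C1q-high cells differed from these gates in direction for G2/M. There the G2/M sum had 915 UPM in control and 525 UPM in Tgfbr2-KO cells, a log2 ratio of -0.80 (-0.91 to -0.70), while the S-phase sum stood at 276 and 415 UPM, a log2 ratio of 0.59 (0.43 to 0.75). Ube2c stood at 87.8 and 33.9 UPM and Mcm5 at 6.80 and 24.0 UPM. The interval lay below 0 in 9 of the 11 G2/M members counted there, against 15.6% of 4904 genes. It lay above 0 in 2 of the 4 counted S-phase members, against 22.9%. The gate on other cycle genes held 13 control and 20 Tgfbr2-KO cells of this state, which is 25.0% and 14.2% of all gated cells. Outside the dividing gate the G2/M sum of this state stood at 160 and 204 UPM.

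Outside the dividing gate, Cks2, Ccnd3 and Bub1b had 1 direction each across the states compared. Cks2 had a log2 ratio below 0 in 6 of 6 states with at least 30 cells, from -1.66 to -0.56, with 6 intervals below 0. Ccnd3 was below 0 in 6 of 6 states, with 5 intervals below 0, and Cdkn1a in 5 of 6. Cdkn1a stood at 789 and 610 UPM in the CD206- gate and at 693 and 716 UPM in the CD206+ gate. Bub1b was above 0 in 6 of 6 states, with 4 intervals above 0, and stood at 1.64 and 5.97 UPM in the CD206- gate. In interferon-activated C1q-high Tgfbr2-KO cells it stood at 17.9 UPM.

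The balance of S phase against G2/M was given by the ratio of their summed UMIs. Over all cells it was 0.817 in the control pool (0.784 to 0.851) and 0.852 in the Tgfbr2-KO pool (0.829 to 0.874). Without Pcna and Cks2, left out after the data were seen, it was 0.584 and 0.581. In gated cells it was 0.396 (0.370 to 0.424) and 0.501 (0.482 to 0.521). In the CD206+ gate it was 1.85 in control and 0.854 in Tgfbr2-KO cells, and in the remaining C1q-high cells 0.301 and 0.790, in opposite directions. These values rest on few dividing cells, 3 control and 27 Tgfbr2-KO cells in the CD206+ gate and 13 and 20 in the remaining C1q-high cells. Outside the dividing gate the ratio was 1.92 and 2.11 in the CD206+ gate and 1.06 and 1.16 in the remaining C1q-high cells. It was 1.42 and 1.86 in the CD206- gate and 1.36 and 1.48 over all states. Without Pcna and Cks2 these ratios were, in the same order, 1.33 and 1.20, 0.778 and 0.694, 1.54 and 1.70, and 1.28 and 0.967. Control was then the higher pool except in the CD206- gate.

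Other genes of the cycle, taken as lists of genes that are not members, are given by the same counts and cells. The S-phase list had 14 of 31 counted genes at least 1.5-fold higher and none lower, beside a background of 11.9% and 7.53% of all counted genes, and its median log2 ratio was 0.53. The flap endonuclease gene Fen1 stood at 8.10 and 18.7 UPM, Clspn, a replication checkpoint gene, at 2.64 and 5.37 UPM, and Gmnn, which blocks new licensing of origins, at 9.51 and 18.2 UPM. At the low end Cdt1, a licensing factor, had a log2 ratio of -0.38, Cdc6 of -0.33 and Pola1 of -0.01. The G2/M list had 22 of 43 counted genes past 1.5-fold upward and 1 downward, beside the same background, and its median was 0.60. The mitotic kinesin genes Kif4 and Kif20a had log2 ratios of 1.26 and 1.18, and Ect2, needed for cytokinesis, 1.17. Ckap2l, a spindle protein gene, was the 1 lower gene, at 86.1 and 28.4 UPM, and it was also lower outside the dividing gate, at 81.2 and 23.0 UPM. Pttg1, which encodes securin, and Ncapg2, a condensin subunit gene, stood near 0, at -0.03 and 0.07.

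Regulators of cyclin-dependent kinases, E2F and retinoblastoma proteins had a median log2 ratio of 0.13 over 27 counted genes, with 2 at least 1.5-fold higher and 3 lower, close to the background of 11.9% and 7.53%. Cdkn2a, the gene of the inhibitor p16, stood at 1.78 and 5.30 UPM, and Cdkn1b, the gene of p27, at 17.9 and 34.7 UPM. Lin54, a subunit gene of the MuvB complex, had a log2 ratio of 0.56. Myc stood at 35.8 and 20.1 UPM, E2f6 at 4.79 and 3.16 UPM, and Cdkn1c, the gene of p57, at 8.84 and 5.86 UPM. Genes linked to growth arrest by TGF-beta had a median of -0.46 over 9 counted genes, 4 of them at least 1.5-fold lower and 2 higher, beside a background of 7.53% and 11.9%. Skil stood at 578 and 276 UPM and Id2 at 566 and 372 UPM, and Myc and Cdkn1c were the other lower genes, whereas Id1 and Cdc25a were higher, with log2 ratios of 0.96 and 0.72. The next highest was Id3, at 173 and 154 UPM, a log2 ratio of -0.17. Cdkn1a is in this list too. Growth arrest by TGF-beta goes through Cdkn1a but also through lower Myc, as given above. The list therefore mixes directions, and its median and counts have no single reading. The targets of p53 had a median of 0.07 over 13 counted genes, with 1 at least 1.5-fold higher and 2 lower, near the background. The highest were Pmaip1, which encodes the death factor Noxa, at 70.4 and 108 UPM, Trp53inp1, at 6.07 and 8.33 UPM, and Ccng1, at 27.2 and 34.5 UPM. The lowest were Gadd45a at 16.3 and 9.44 UPM, Phlda3 at 7.42 and 4.39 UPM, and Mdm2, the gene of the ligase that marks p53 for breakdown, at 214 and 161 UPM.

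Over the 4570 cells, the genes whose log level followed the summed G2/M members most closely among 7013 non-member genes with at least 500 UMIs were Racgap1 (Pearson r 0.51), Cdca8 (0.49), Spc24 (0.48), Hist1h1b (0.48) and Diaph3 (0.42). The next 5 were Smc2, Hist1h4d, Sdk1, Incenp and H2afx, with r from 0.36 to 0.41. For the summed S-phase members they were Dut (0.38), Lig1 (0.36), Hist1h1b (0.35), Spc24 (0.35) and Gmnn (0.33), followed by Tuba1b, Cdca8, Smc2, Tipin and Ptma, with r from 0.27 to 0.32. Cells share the library and differ in depth, so these values describe likeness in these cells only.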

How the data were processed

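Donor cells of 1 control and 1 Tgfbr2-KO pool were measured in 1 droplet-based 3′ library with a hashtag library. Reads were processed with Cell Ranger 8.0 and Seurat 5.1.0 on GRCm38, per the submitters' processing notes, and the matrix was written by Cell Ranger 8.0.0, per the file headers. The strand setting and the annotation version are not given in the sources used here. The deposited matrix holds counts of UMIs per gene and barcode. The deposited hashtag table gives each cell's assignment, its probability as a fraction, and the hashtag counts on a log10 scale. Cells were taken from the authors' deposited assignments, and 101 of the assigned cells were left out by 3 filters: fewer than 1000 UMIs, fewer than 500 genes or more than 10% mitochondrial UMIs. Doublets within a pool were not called; cells carrying both hashtags were left out as the authors' multiplets.

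For each pool the UMIs of a gene were added up over cells and divided by all gene UMIs. Intervals are at 95%: exact Poisson for levels, conditional binomial for ratios and Clopper-Pearson for shares. They cover counting error only, and those of UMI levels and UMI ratios leave out the spread between cells. With 1 pool per genotype no test was made. Total depth was 16298452 UMIs for control and 30729204 for Tgfbr2-KO. For shares of cells each cell was thinned to 3000 UMIs (seed 1), leaving out 80 control and 83 Tgfbr2-KO cells under that depth. States were set on marker sums per 10000 UMIs: at least 20 for C1q, interferon-activated, classical monocyte and structural markers, 15 for CD206+, 10 for CD206- and Fn1, and 5 for patrolling monocyte and dendritic markers. The 11 cells that passed the structural gate were kept in sums over all cells and described in no state. Free RNA, bounded by C1q genes in Ly6c2 monocyte-like cells, made up at most 1.56% of control and 1.47% of Tgfbr2-KO UMIs. Scripts used Python 3.11.15, numpy 2.4.6, scipy 1.17.1, pandas 2.3.3 and matplotlib 3.10.9, and were tested on simulated data.

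The members and lists were chosen with earlier results of these data known. All 42 members are accounted for. Those with the most UMIs of each group are described in full (up to 8 S-phase and 10 G2/M members, and all others), together with members at the ends of the range. For the lists of other S-phase and G2/M genes, kinase regulators, p53 targets and TGF-beta growth arrest genes the 3 highest and 3 lowest ratios among genes with at least 100 UMIs are named, and 10 genes for each correlation. Alternatives covered the cell filters, assignment probability, scaling, thinning, thresholds, free RNA and gates.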

Additional observations from a re-analysis of the deposited data

Results flagged for a closer look

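Summed G2/M members differed in direction between states. The log2 ratio of Tgfbr2-KO over control was -0.80 in the remaining C1q-high cells, against 0.76 in the CD206- gate, 1.51 in the CD206+ gate and 0.32 in the remaining C1q-low cells. The difference between these states was not tested, since each rests on 1 pool per genotype. The gate on other cycle genes held 13 control and 20 Tgfbr2-KO cells of the remaining C1q-high state.

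Cells that the authors' hashtag assignment called multiplets were in no comparison. Of 95 such cells 8 were cycling by the count of members, 8.42% (3.71 to 15.9), and their median depth was 17264 UMIs before thinning.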

How the results depend on the processing

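The summed S-phase and G2/M members, the counts of members called and the share of cycling cells were recomputed under the alternatives that apply to each. The S-phase to G2/M ratio was recomputed only with no cell filter, in thinned cells, with other cycle genes and without Pcna and Cks2. Of these values 44 stayed near the reported ones and 17 moved, and none reversed when each was labelled singly. The S-phase to G2/M ratios were labelled by pool, so the order of the pools was not part of this check. That order, 0.817 in control and 0.852 in Tgfbr2-KO cells as reported, changed slightly the other way without Pcna and Cks2. No member changed sign in any of 7 settings of cells, scaling or free RNA. The log2 ratio of the G2/M sum, 0.32 as reported, was 0.39 without interferon-activated cells, 0.50 without the top 5% of cells by UMIs, 0.25 with TMM scaling and 0.42 as a mean of cells. The S-phase sum, 0.38 as reported, was 0.31 with TMM scaling, which shifts all genes by 0.07. Without interferon-activated cells 1 member was at least 1.5-fold lower, and at a 2-fold threshold 5 members were higher and 0 lower. The share of cycling cells was 1.30-fold higher with at least 2 members of a phase (12.6% and 16.4%). The S-phase to G2/M ratio was 0.760 in control and 0.878 in Tgfbr2-KO cells with other cycle genes, and 0.918 and 0.954 in thinned cells. Alternatives chosen after seeing the data left out Pcna and Cks2, which gave log2 ratios of 0.60 and 0.60 for the S-phase and G2/M sums and ratios of 0.584 and 0.581, and used another thinning seed, which gave a share 2.01-fold higher. The cause was not tested for any of these. Free RNA subtraction was not run for the share of cycling cells. No paired analysis was possible because each genotype is 1 pool. Depth limits genes such as Plk1 and Aurka, whose intervals are wide.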
